A study of Mus musculus with 24 samples.

Results

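Dner, Nt5e and Chst8 are 3 mouse genes whose RNA was at or near the detection limit in naive diaphragm and at 2 days post injection (dpi) of Trichinella spiralis newborn larvae, and well above it at 7 dpi. They were selected on measured values, for a very large rise from 2 to 7 dpi in Rag1-/- muscle. They are 3 of 16593 genes that the array annotation names, read by 4 of 25697 probes: 1 for Dner, 1 for Chst8 and 2 for Nt5e. The rule had no numerical threshold. Every comparison among Rag1-/- arrays is therefore given as a description, without a test, and tests are confined to WT and PHIL mice, whose arrays did not enter the choice.

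Whole diaphragms were taken from 3 strains on the C57BL/6 background. WT were C57BL/6 mice, Rag1-/- mice lack mature T and B cells, and PHIL mice carry a transgene that drives a diphtheria toxin chain from the eosinophil peroxidase promoter and so ablates eosinophils. Each strain had 2 naive mice, 3 mice at 2 dpi and 3 mice at 7 dpi, all infected mice receiving the larvae into the blood, and each diaphragm was hybridised to its own Illumina MouseRef-8 v2.0 array. Age, sex and the chip of each array are not given in the sources used here. Each array gives, per probe, a linear signal averaged over beads and a detection p-value, which sets that signal against negative control beads. A probe is called detected where this p is below 0.01.

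Newborn larvae of T. spiralis leave the bloodstream, enter striated muscle fibres and convert them into nurse cells. Around them fibres are injured, leukocytes enter, and myoblasts and connective tissue cells divide and lay down new tissue. The 3 genes act at the cell surface or in the secretory route. Nt5e encodes CD73, an enzyme anchored to the outer membrane that splits AMP into adenosine and is carried by fibroblasts, endothelium and lymphocytes. Dner encodes a transmembrane protein with EGF repeats, best known from neurons, that can bind Notch on a neighbouring cell. Chst8 encodes a Golgi sulfotransferase that adds sulfate to terminal N-acetylgalactosamine of glycoproteins, with pituitary hormones as its best known substrates.

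The genes lie on 3 chromosomes (GRCm38.p6, RefSeq): Dner at chr1:84369839-84696221 on the minus strand, Chst8 at chr7:34674468-34812711 on the minus strand, and Nt5e at chr9:88327609-88372089 on the plus strand. Which exon or transcript each probe reads is not given in the sources used here. Since the genes moved together, the 250 bases before each RefSeq start are shown, 5′ to 3′ on the strand of the gene, with CG pairs in capitals.
Dner, chr1:84696222-84696471: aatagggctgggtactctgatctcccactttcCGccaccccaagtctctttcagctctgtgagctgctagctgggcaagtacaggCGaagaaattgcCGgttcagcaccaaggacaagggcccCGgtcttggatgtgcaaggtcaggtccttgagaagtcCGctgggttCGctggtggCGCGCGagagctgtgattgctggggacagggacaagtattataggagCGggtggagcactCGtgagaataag
Nt5e, chr9:88327359-88327608: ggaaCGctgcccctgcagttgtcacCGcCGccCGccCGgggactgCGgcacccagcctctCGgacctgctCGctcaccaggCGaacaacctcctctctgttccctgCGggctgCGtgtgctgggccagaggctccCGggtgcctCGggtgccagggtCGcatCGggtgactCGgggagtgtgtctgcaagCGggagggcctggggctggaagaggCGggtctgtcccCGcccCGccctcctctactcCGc
Chst8, chr7:34812712-34812961: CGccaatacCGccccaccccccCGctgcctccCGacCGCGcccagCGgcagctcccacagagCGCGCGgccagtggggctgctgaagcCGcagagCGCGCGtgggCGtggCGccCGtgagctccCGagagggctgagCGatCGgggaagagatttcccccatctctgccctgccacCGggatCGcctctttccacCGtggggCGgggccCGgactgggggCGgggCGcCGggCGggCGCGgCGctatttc
The windows differ in base composition. Chst8 has 32 CG pairs and Nt5e 21, against a median of 6 over 32851 mouse promoters cut to the same window, and 95.4% and 83.7% of these promoters hold fewer. Dner has 11, more than 64.4% of promoters, and 92.1% of all promoters hold at least 1. Searched on both strands, the AP-1 motif TGANTCA, which 6.75% of all promoters hold, had no match in any of the 3 windows. The same was true of the TEAD motif GGAATG (12.6% of promoters), the RBPJ motif TGGGAA (21.6%), the hypoxia motif ACGTG (16.6%) and the STAT motif in each of 2 spacings (5.85% and 7.02%). This says only that these letters are not in these windows.

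The arrays of the strains were not equally bright. Median signal lay between 106.3 and 131.9 on the 16 WT and PHIL arrays and between 295.1 and 333.4 on the 8 Rag1-/- arrays, and 8847 to 10627 and 10340 to 11740 probes were detected. Raw signals are thus compared within WT and PHIL or within Rag1-/- only, and strain and array brightness cannot be told apart for Rag1-/-. Background-corrected, quantile-normalised log2 values (neqc) are used for differences. All 7 skeletal muscle markers on the array were detected in every group. Of the 4 eosinophil markers (Epx, Prg2, Siglecf and Ccr3) 0 were detected on any array, WT included, so the arrays do not show the ablation in PHIL mice, and 0 of 7 T cell markers were detected in Rag1-/- muscle at 7 dpi. The single Rag1 probe was detected on 1 of 24 arrays, in a naive PHIL mouse, and gives no check of the knockout.

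Dner was not detected before 7 dpi. Its signal in WT was 93.9 and 102.1 in the naive mice, 108.9, 92.7 and 83.8 at 2 dpi, and 547.0, 542.7 and 477.9 at 7 dpi. In PHIL it was 84.8 and 98.7, then 82.3, 97.5 and 106.9, then 477.6, 385.6 and 409.2. In Rag1-/- it was 244.3 and 270.9, then 231.8, 280.8 and 241.7, then 1836.5, 1360.7 and 1385.0. The probe was detected on 9 of 9 arrays at 7 dpi and on 0 of 15 earlier arrays, so within each strain the 7 dpi group lay clear of the other groups, which overlapped each other.

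Nt5e probe A, the brighter of the pair, read low signals before 7 dpi and several times more at 7 dpi. Its signal in WT was 114.0 and 130.6 in the naive mice, 136.0, 121.3 and 143.6 at 2 dpi, and 1026.5, 956.8 and 822.5 at 7 dpi. In PHIL it was 140.9 and 115.1, then 123.9, 130.8 and 133.4, then 659.0, 446.6 and 590.2. In Rag1-/- it was 387.7 and 413.1, then 404.8, 304.1 and 406.7, then 4603.3, 3998.6 and 3619.3. It was detected on 9 of 9 arrays at 7 dpi and 7 of 15 earlier arrays. The naive and 2 dpi groups overlapped in each strain, and the 3 PHIL arrays at 7 dpi all lay below the 3 WT arrays.

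Nt5e probe B read the same direction at a much lower signal. In WT it read 110.5 and 114.4 in the naive mice, 97.4, 96.0 and 111.8 at 2 dpi, and 187.9, 162.4 and 150.8 at 7 dpi. In PHIL it read 112.2 and 109.6, then 114.9, 105.7 and 108.5, then 142.6, 122.4 and 142.9. In Rag1-/- it read 376.1 and 334.1, then 282.3, 320.6 and 313.4, then 599.2, 598.5 and 517.0. Before normalisation the 7 dpi signals of each strain were above all earlier ones of that strain. With all 24 arrays normalised together, PHIL 7 dpi replicate 2 (5.37 on the log2 scale) lay below both naive PHIL arrays (5.48 and 5.42). The probe was detected only on the 6 WT and Rag1-/- arrays at 7 dpi and on 1 naive Rag1-/- array. It was not detected on any PHIL array.

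Chst8 was faint before 7 dpi and clearly measured afterwards. Its signal in WT was 128.3 and 145.2 in the naive mice, 135.3, 120.6 and 137.0 at 2 dpi, and 801.6, 786.6 and 684.2 at 7 dpi. In PHIL it was 122.6 and 151.8, then 151.5, 140.3 and 143.2, then 818.2, 672.8 and 784.7. In Rag1-/- it was 428.9 and 368.9, then 336.5, 338.4 and 358.1, then 2878.0, 2610.0 and 2519.4. It was detected on 9 of 9 arrays at 7 dpi and on 7 of 15 earlier arrays. WT and PHIL overlapped at 7 dpi, and in Rag1-/- the 2 dpi signals were all below the naive ones.

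**Figure D1:**
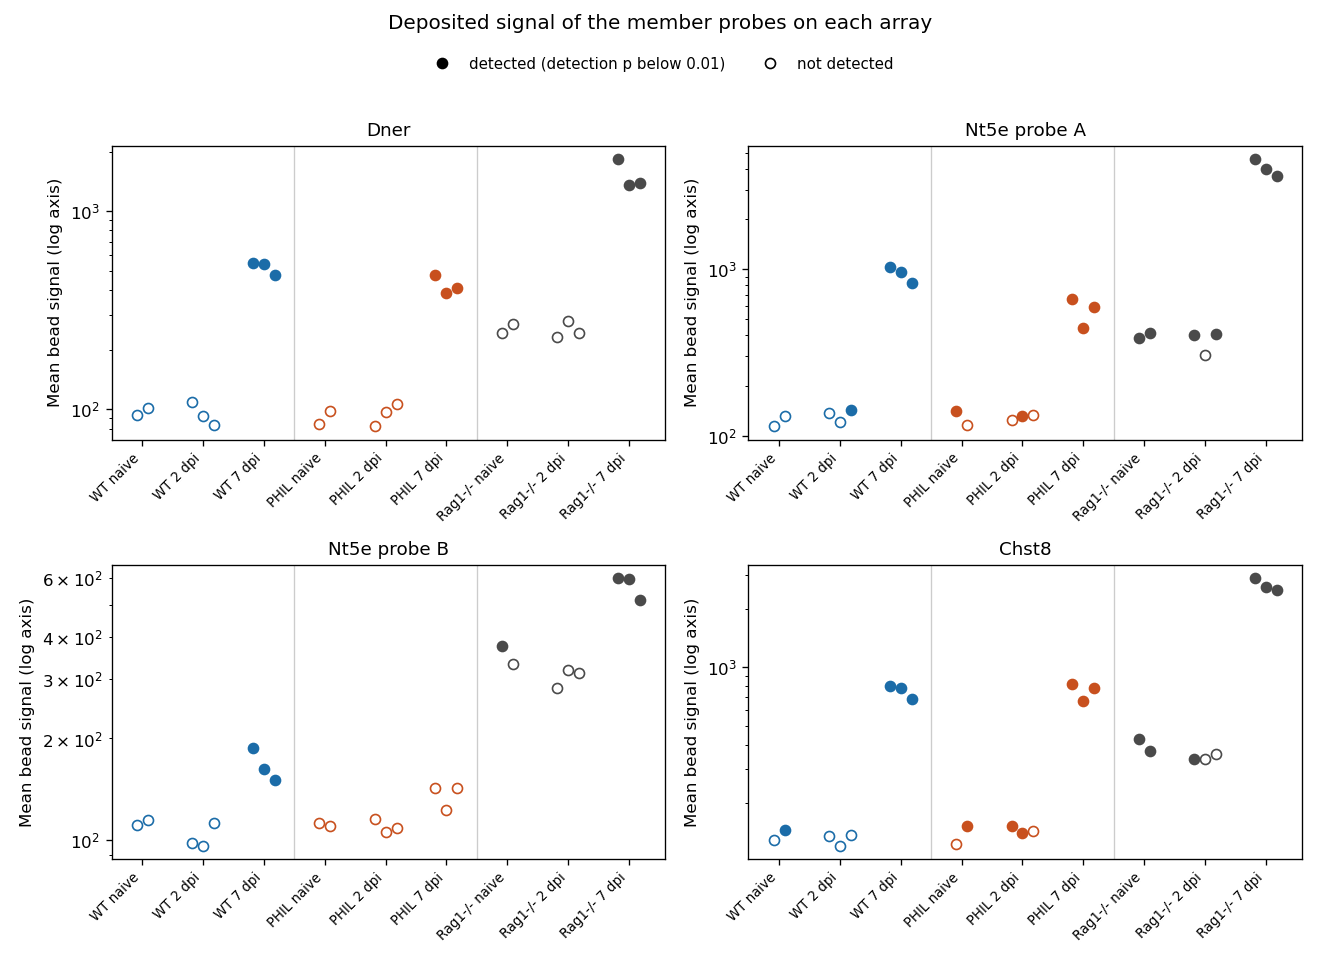
Mean bead signal (log axis) of the 4 probes on each of the 24 arrays, by strain and time, with filled points for detected probes (detection p below 0.01) and open points for probes not detected. Dner is open on all 15 earlier arrays and filled on all 9 arrays at 7 dpi. The Rag1-/- arrays are brighter throughout (median signal 295.1 to 333.4 against 106.3 to 131.9).

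Placed on 1 scale by normalising all 24 arrays together, the level of each probe was highest in Rag1-/- at 7 dpi. Dner averaged 9.42 ± 0.27 (SD, n = 3) on the log2 scale there, 9.02 ± 0.06 in WT and 8.59 ± 0.10 in PHIL at 7 dpi, with no overlap between these groups. The other 6 groups lay between 4.76 and 4.95 and overlapped. Nt5e probe A followed the same order, with 11.03 ± 0.12 in Rag1-/-, 10.05 ± 0.08 in WT and 9.10 ± 0.25 in PHIL, again without overlap, and 6.04 to 6.54 in the 6 earlier groups. Chst8 averaged 10.37 ± 0.07 in Rag1-/- at 7 dpi, above 9.69 ± 0.05 in WT and 9.66 ± 0.08 in PHIL, which overlapped each other. The earlier Chst8 groups ran from 6.07 to 6.83, the WT naive group being the highest of them. Nt5e probe B averaged 7.41 ± 0.10 in Rag1-/- and 6.44 ± 0.26 in WT at 7 dpi, and its 5.68 ± 0.27 in PHIL at 7 dpi overlapped WT naive muscle (5.66 ± 0.14). These levels are a description, since the Rag1-/- arrays chose the genes.

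From 2 to 7 dpi the RNA of all 3 genes rose in WT muscle. The limma test on the 16 WT and PHIL arrays covered 11336 probes detected on at least 2 of them, and a call needed both a 1.5-fold change and a Benjamini-Hochberg adjusted p no higher than 0.05. Of the 4 probes 4 were called higher at 7 than at 2 dpi, where 9.67% of all probes tested were. Dner and Nt5e probe B passed the detection filter only through arrays at 7 dpi and had to differ to be tested at all, so the count is a description. With no filter on detection, so that all 25697 probes were tested, Dner kept its call in WT and PHIL (limma adjusted p = 3.71e-10 and 1.55e-09) and Nt5e probe B in WT (adjusted p = 9.02e-05).

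Where no array of a group detected a probe, the group was set at the detection limit, and the fold is written as "at least". Such a bound, like every fold given, holds on the background-corrected scale only. In WT, Dner was in this sense at least 5.80-fold higher at 7 than at 2 dpi (limma adjusted p = 4.13e-10). Its measured values differed by 3.78 on the log2 scale (SE 0.132). Nt5e probe A, detected on 1 of 3 WT arrays at 2 dpi, was 13.7-fold higher (log2 3.77, SE 0.212, limma adjusted p = 2.66e-08). Chst8 was at least 9.14-fold higher (measured difference 3.49 on the log2 scale, SE 0.204, limma adjusted p = 3.53e-08). Ordered by the measured difference, Dner, Nt5e probe A and Chst8 stood at ranks 5, 6 and 8 of the 11336 probes. Nt5e probe B stood at rank 293, at least 1.03-fold higher by its bound (measured difference 1.16, SE 0.151, limma adjusted p = 5.92e-05).

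PHIL muscle, which lacks eosinophils, had the same 3 genes higher at 7 dpi. Of the 4 probes 3 were called higher than at 2 dpi, against 9.75% of all probes, a count that is a description as in WT. Dner was at least 4.58-fold higher (measured difference 3.42 on the log2 scale, SE 0.132, limma adjusted p = 1.66e-09), Nt5e probe A 7.70-fold (log2 2.95, SE 0.212, adjusted p = 3.98e-07) and Chst8 8.19-fold (log2 3.03, SE 0.204, adjusted p = 2.2e-07). Nt5e probe B, detected on no PHIL array, differed by 0.34 on the log2 scale (SE 0.151, limma adjusted p = 0.0958) and was not called. At 2 dpi 1 of 3 PHIL arrays detected Nt5e probe A and 2 of 3 Chst8.

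The size of these rises rests on the background correction. Without it the differences were smaller, and several lay under the bounds given on the corrected scale. This held for Dner from 2 to 7 dpi in WT and PHIL and from naive to 7 dpi in WT. It also held in WT for Chst8 from 2 to 7 dpi and for Nt5e probe A from naive to 7 dpi. From 2 to 7 dpi in WT the uncorrected log2 differences were 2.11 for Dner, 2.49 for Nt5e probe A and 2.21 for Chst8. All were still called, while Nt5e probe B, at 0.47, was then under the fold threshold. In PHIL they were 1.82, 1.75 and 2.02 for Dner, Nt5e probe A and Chst8. From naive to 7 dpi they were 2.06, 2.47 and 1.92 in WT and 1.85, 1.65 and 1.94 in PHIL, in the same order.

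At 7 dpi the genes were also higher than in naive muscle, a comparison that shares the 7 dpi arrays with the one above. In WT 4 of 4 probes were called higher, where 15.1% of all probes were, and in PHIL 3 of 4, where 14% were. Dner and Nt5e probe B again passed the detection filter only through arrays at 7 dpi, so these counts are a description. With no filter on detection Dner kept its calls in WT and PHIL (limma adjusted p = 1.01e-09 and 3.92e-09). Nt5e probe B then kept its call in WT (limma adjusted p = 0.00812). Dner was at least 4.44-fold higher than naive in WT and at least 3.60-fold in PHIL (limma adjusted p = 1.12e-09 and 4.02e-09). Nt5e probe A was at least 8.90-fold higher in WT and 6.62-fold in PHIL (adjusted p = 9.12e-08 and 1.65e-06), and Chst8 6.90-fold and 7.55-fold (adjusted p = 8.36e-07 and 6.23e-07). Nt5e probe B gave 0.69 on the log2 scale in WT (adjusted p = 0.00464) and 0.20 in PHIL (adjusted p = 0.367), and the WT call was lost without WT 7 dpi replicate 1 (log2 0.55), with normexp (0.33), with the authors' values (0.26) and without background correction (0.26).

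At 2 dpi no member probe was called higher than in naive muscle. In WT limma called 0 of the 4 higher and 1 lower, where 21.7% of all probes were called in either direction. The lower one was Chst8 (measured difference -0.70 on the log2 scale, SE 0.228, limma adjusted p = 0.0263), with 1 of 2 naive arrays and 0 of 3 arrays at 2 dpi detecting it. That call was lost without WT naive replicate 1 or 2 or WT 2 dpi replicate 2 (adjusted p = 0.0526, 0.154 and 0.0878). It was also lost with normexp, scaling, the authors' values and no background correction, where the difference shrank to -0.36, -0.31, -0.29 and -0.29 on the log2 scale. Under all settings and left-out arrays its adjusted p ran from 0.00158 to 0.223. Dner and Nt5e probe A differed by -0.02 and -0.07, and Nt5e probe B by -0.46 on the log2 scale (adjusted p = 0.926, 0.85 and 0.0431). In PHIL limma called 0 of 4 probes at 2 dpi, with 0 at an unadjusted p under 0.05, where 17.1% of all probes were called. Without PHIL naive replicate 1 Chst8 was called lower (log2 -0.66, adjusted p = 0.021), and without PHIL naive replicate 2 Nt5e probe A was (log2 -0.70, adjusted p = 0.046). With all arrays the PHIL intervals (95%) ran from -0.27 to 0.37 for Dner, -0.73 to 0.29 for Nt5e probe A and -0.61 to 0.37 for Chst8 on the log2 scale.

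In Rag1-/- muscle, where the genes were picked, the measured differences from 2 to 7 dpi were 4.996 for Dner (SE 0.219), 4.88 for Nt5e probe A (SE 0.351), 4.41 for Chst8 (SE 0.159) and 2.09 for Nt5e probe B (SE 0.19) on the log2 scale. These stood at ranks 2, 3, 6 and 101 of 12095 probes. Between and beside them in that order were Actg2, the smooth muscle gamma actin, at rank 1 (5.48), both probes of Igfbp2, an insulin-like growth factor binding protein, at ranks 4 and 5 (4.65 and 4.52), and Ccn5, a matricellular protein, at rank 7 (4.38). Without background correction the differences of Dner, Nt5e probe A and Chst8 were 2.45, 3.31 and 2.78. From naive to 2 dpi in Rag1-/- Dner differed by 0.03, Nt5e probe A by -0.29, Nt5e probe B by -0.62 and Chst8 by -0.49.

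**Figure D2:**
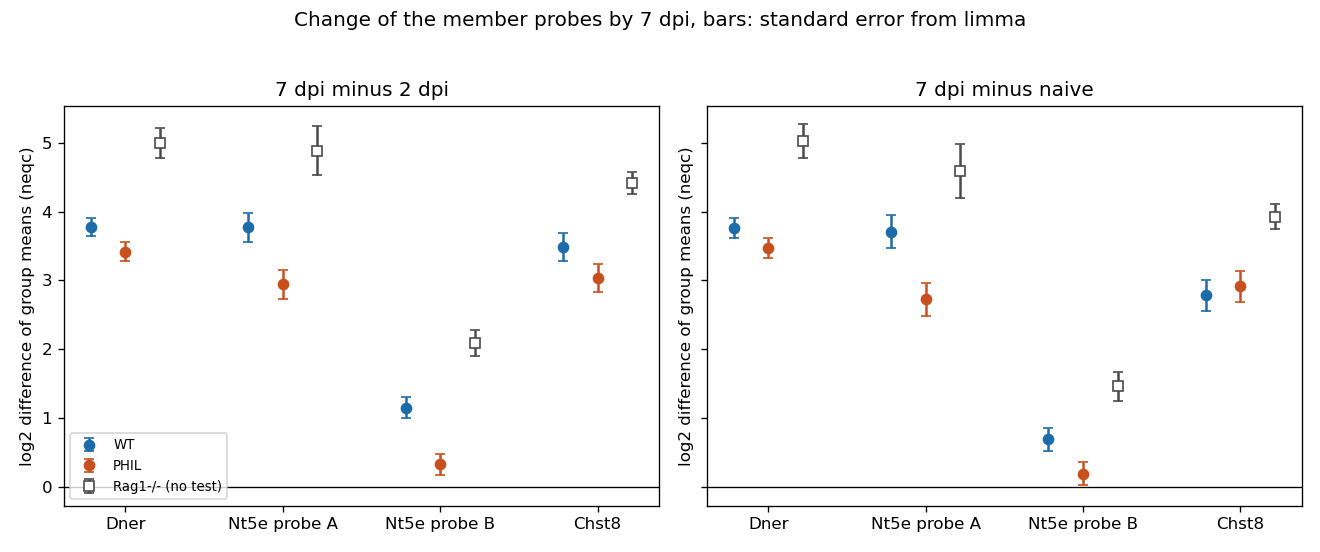
Difference of group means on the log2 scale (neqc) for the 4 probes from 2 to 7 dpi and from naive to 7 dpi in WT and PHIL (filled circles) and Rag1-/- (open squares, no test), with bars for the standard error from limma. Dner, Nt5e probe A and Chst8 lie between 2.73 and 5.02, and Nt5e probe B between 0.20 and 2.09. Where a group had no detected array, the point is the measured difference and not the bound.

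The measured values of the Nt5e probes moved by different amounts. Probe A exceeded probe B within an array by 0.55 ± 0.44 (SD, n = 2) in naive WT, 1.05 ± 0.12 (n = 3) at 2 dpi and 3.61 ± 0.18 (n = 3) at 7 dpi on the log2 scale, on the scale of all 24 arrays. In PHIL the differences were 0.82 ± 0.70, 0.77 ± 0.35 and 3.43 ± 0.04, and in Rag1-/- 0.53 ± 0.53, 0.81 ± 1.03 and 3.63 ± 0.11. The arrays at 7 dpi spanned 3.39 to 3.75 over the 3 strains and lay above every earlier array, of which the highest was 1.67. The measured difference between the probes was 2.61 larger at 7 than at 2 dpi on the log2 scale in the mean of WT and PHIL, and 1.82 without background correction. Probe B was below the detection limit on most arrays, so how far it moved is not measured, these values are a description with no test, and which transcripts the probes read was not tested.

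**Figure D3:**
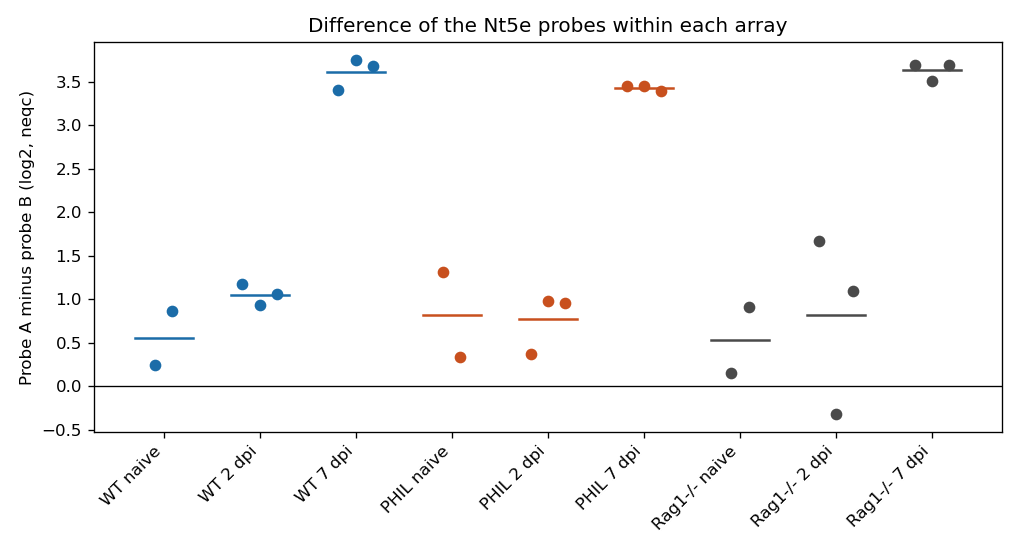
Difference between the Nt5e probes (probe A minus probe B, log2, neqc of all 24 arrays) on each array, with a line at each group mean, by strain and time. The 9 arrays at 7 dpi lie between 3.39 and 3.75, and the 15 earlier arrays between -0.32 and 1.67.

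PHIL and WT were compared at each time, for the question of what changes where eosinophils are missing. At 7 dpi limma called 0 of 4 probes lower in PHIL (3 at an unadjusted p under 0.05), where 0.406% of all probes were called lower. Nt5e was nearest to the threshold. Probe A was 1.89-fold lower in PHIL (log2 -0.92, SE 0.212, limma adjusted p = 0.0574), with each of the 3 PHIL arrays below each of the 3 WT arrays. Probe B was at least 1.14-fold lower by its bound (measured difference -0.68, SE 0.151, adjusted p = 0.0574), detected on 3 of 3 WT and 0 of 3 PHIL arrays. It passed the detection filter only through those WT arrays, where it was high. With no filter on detection its limma adjusted p was 0.0938. Dner differed by -0.42 on the log2 scale (SE 0.132, adjusted p = 0.146), again with no overlap, and Chst8 by -0.03 with a 95% interval from -0.47 to 0.40 (adjusted p = 0.96).

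The call for Nt5e at 7 dpi depended on the fit. The study's supplementary code also lists Nt5e, lower in PHIL, among its largest differences in this comparison, with another normalisation and probe filter. Over all settings and left-out arrays the adjusted p of probe A ran from 0.00232 to 0.196 and its difference from -1.01 to -0.78 on the log2 scale, lower in PHIL each time. It was called with normexp correction, with no correction, with the authors' normalised values, with array weights, with a trended and robust fit, and without PHIL naive replicate 1 or 2 (adjusted p = 0.011, 0.00255, 0.00232, 0.031, 0.0208, 0.0346 and 0.0356). An exact permutation test of 3 against 3 arrays gave p = 0.1 for Dner and for each Nt5e probe, the smallest it can give.

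Pairs of members were also compared within each array at 7 dpi. The log2 difference of Nt5e probe A and Chst8 ran from 0.31 to 0.39 on the WT arrays and from -0.73 to -0.37 on the PHIL arrays, a gap of -0.88 between strains (exact permutation test, two-sided, p = 0.1, the smallest possible). For Dner and Chst8 the ranges were -0.67 to -0.64 in WT and -1.17 to -0.95 in PHIL (gap -0.39, exact p = 0.1). For Nt5e probe A and Dner they were 0.95 to 1.06 and 0.27 to 0.66 (gap -0.50, exact p = 0.1). With 3 against 3 arrays the smallest p is 0.1, so no pair can pass 0.05 before or after adjustment for the 3 pairs.

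The difference between strains in the rise itself was tested as well. For PHIL against WT in the change from 2 to 7 dpi limma called 0 of 4 probes lower (2 at an unadjusted p under 0.05), where 0% of all probes were called lower. The change was smaller in PHIL by 0.83 for Nt5e probe A, with a 95% interval from -1.47 to -0.18 and adjusted p = 0.654, and by 0.82 for probe B, 0.36 for Dner and 0.45 for Chst8. For the change from naive, limma called 0 of 4 (1 at an unadjusted p under 0.05), where 0.00882% of all probes were called lower, and Nt5e probe A had -0.98 (adjusted p = 0.362). Between the strains at 2 dpi 0 of 4 probes were called and 0 had an unadjusted p under 0.05 by limma, where 0.00882% of all probes were called in either direction. The same counts of 0 and 0 held in naive muscle, where limma called 0% of all probes (889 of 11336 at an unadjusted p under 0.05).

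Markers of other cells differed between PHIL and WT at 7 dpi. The summed level of the 7 T cell markers at 7 dpi ran from 1822 to 2733 in PHIL and from 902.9 to 1393 in WT (linear neqc values), with Cd4 and Cd8a not detected in either. The 4 B and plasma cell markers summed to 490.2 to 1025 in PHIL and 273.7 to 364.5 in WT (Cd79a and Ms4a1 not detected), and the 4 mesothelium markers to 1407 to 2013 and 928.9 to 1121 (Msln not detected in either), again without overlap. Before infection the B and plasma cell sum was already higher in PHIL (357 to 693.1, against 333.3 to 353.2 in naive WT). At 2 dpi that sum overlapped (321.2 to 945.1 in PHIL, 374.1 to 519.3 in WT). Mesothelium sums overlapped in naive muscle (1662 to 2583 in PHIL, 1193 to 1728 in WT). The 5 myofibroblast and smooth muscle markers, summed, overlapped between the strains at 7 dpi (34720 to 36780 in PHIL, 32830 to 37320 in WT). The part of any of these in the lower Nt5e signal was not tested.

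Over time, the sum of the myofibroblast and smooth muscle list moved with the 3 genes, but its members did not move as 1. In WT it summed to 7997 to 8416 in naive muscle, 5923 to 7350 at 2 dpi and 32830 to 37320 at 7 dpi, and in Rag1-/- to 7000 to 10630, 7312 to 10030 and 35720 to 44860. The sum was dominated by Acta2, smooth muscle alpha actin, whose mean log2 level in WT was 12.90, 12.63 and 15.03 in naive muscle and at 2 and 7 dpi. Tagln and Actg2 were detected in WT at 7 dpi only. Myh11, smooth muscle myosin, had 8.51, 7.20 and 8.49, and Cnn1 was detected on no array.

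Of the regenerating muscle list Myh8, the perinatal myosin, stepped up late in WT as the 3 genes did, with mean log2 levels of 8.97, 8.40 and 12.97. In Rag1-/- muscle, unlike the 3 genes, Myh8 was already higher at 2 dpi than in naive muscle (8.26, 11.14 and 12.22). Myl4, an embryonic myosin light chain, had 9.53, 13.67 and 13.61 in WT. Myog and Chrng were highest at 2 dpi in WT (10.05 and 11.01, against 8.15 and 8.47 at 7 dpi). The 5 markers summed to 1413 to 1530 in naive WT muscle, 15270 to 18380 at 2 dpi and 20290 to 23330 at 7 dpi.

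T cell markers summed in WT to 293.2 to 433.0 at 2 dpi and 902.9 to 1393 at 7 dpi, and in Rag1-/- to 228.3 to 253.5 and 216.9 to 246.5. Of 5 neuron and Schwann cell markers S100b, Nefl, Tubb3 and Gfap were detected in no group, and the sum stayed between 175.2 and 278.1. Fibroblast markers summed to 26580 to 32730 in naive WT and 35790 to 42840 at 7 dpi, whereas the same times overlapped in PHIL (34160 to 38460 and 35770 to 38410) and in Rag1-/- (29400 to 34830 and 33410 to 37500). This sum was dominated by Dcn (mean log2 14.37 and 14.55 in WT), and its members moved in different directions. From naive to 7 dpi Col1a1 had means of 10.34 and 11.83 in WT, 10.79 and 11.92 in PHIL, and 9.96 and 11.22 in Rag1-/-. Pdgfra had 10.04 and 9.90 in WT, 10.19 and 9.77 in PHIL, and 10.69 and 9.97 in Rag1-/-. Endothelium markers were lower at 7 dpi than in naive muscle in each strain (5377 to 6073 and 3728 to 4658 in WT), and mesothelium markers in WT summed to 1193 to 1728, 2230 to 2689 and 928.9 to 1121 over the 3 times. Macrophage markers summed to 346.4 to 439.0 in naive WT, 1229 to 1580 at 2 dpi and 1140 to 1830 at 7 dpi. In whole tissue, more cells of a type and more RNA per cell cannot be told apart, and the part of any cell type in the rise of Dner, Nt5e and Chst8 was not tested.

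The genes nearest in pattern were found by Pearson correlation with the brightest probe of each member over all 24 arrays, among 8986 other genes with a detected probe. The 24 points share their arrays, and 9 of them are at 7 dpi, so r mainly restates the step at that time. For Dner these were Lrrc75b (r = 0.990), the actin regulator Wasf1 (0.988), the neuronal transmembrane gene Slitrk5 (0.983), Trip6, a focal adhesion LIM protein (0.981), and the actin-binding Rai14 (0.980). Chst8 followed as the sixth (0.979) and Nt5e as the 35th (0.966).

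For Nt5e they were Sh3gl2, an endophilin of membrane curvature (r = 0.981), Tagln, an actin-binding protein of smooth muscle (0.972), the matricellular Thbs1 (0.970), the ubiquitin-conjugating Ube2e2 (0.968) and Flrt3, an adhesion protein that binds FGF receptors (0.968). Dner was the 9th (0.966) and Chst8 the 35th (0.953). For Chst8 they were Asap1, which acts on Arf GTPases (0.986), Flrt3 (0.986), Wasf1 (0.981), Dner (0.979) and the synaptotagmin Syt11 (0.978). Over the 16 WT and PHIL arrays alone, r for the pairs named here lay between 0.946 (Chst8 with Nt5e) and 0.991 (Lrrc75b with Dner).

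These genes differed in how far they moved and where they began. From 2 to 7 dpi in WT, Slitrk5 rose by 3.42, Tagln by 2.86, Wasf1 by 2.74, Lrrc75b by 2.30 and Sh3gl2 by 2.10 on the log2 scale, whereas Syt11, Asap1 and Ube2e2 rose by 1.26, 1.26 and 1.22. Lrrc75b, Slitrk5, Sh3gl2 and Tagln, like Dner, were detected on 9 of 9 arrays at 7 dpi and 0 of 15 earlier ones. Trip6, Rai14, Ube2e2, Flrt3, Asap1 and Syt11 were detected on all 15 earlier arrays. In PHIL against WT at 7 dpi Sh3gl2 differed by -0.70, Tagln by -0.29, Thbs1 by -0.49, Ube2e2 by -0.17 and Flrt3 by -0.35. Nt5e probe A, to which they were nearest, differed by -0.92. Of the genes nearest to Chst8 (-0.03), Asap1 differed by 0.04, Flrt3 by -0.35, Wasf1 by -0.14 and Syt11 by -0.06. Near Dner (-0.42), Lrrc75b differed by -0.36, Slitrk5 by -0.49, and Trip6 and Rai14 by -0.02 each.

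**Figure D4:**
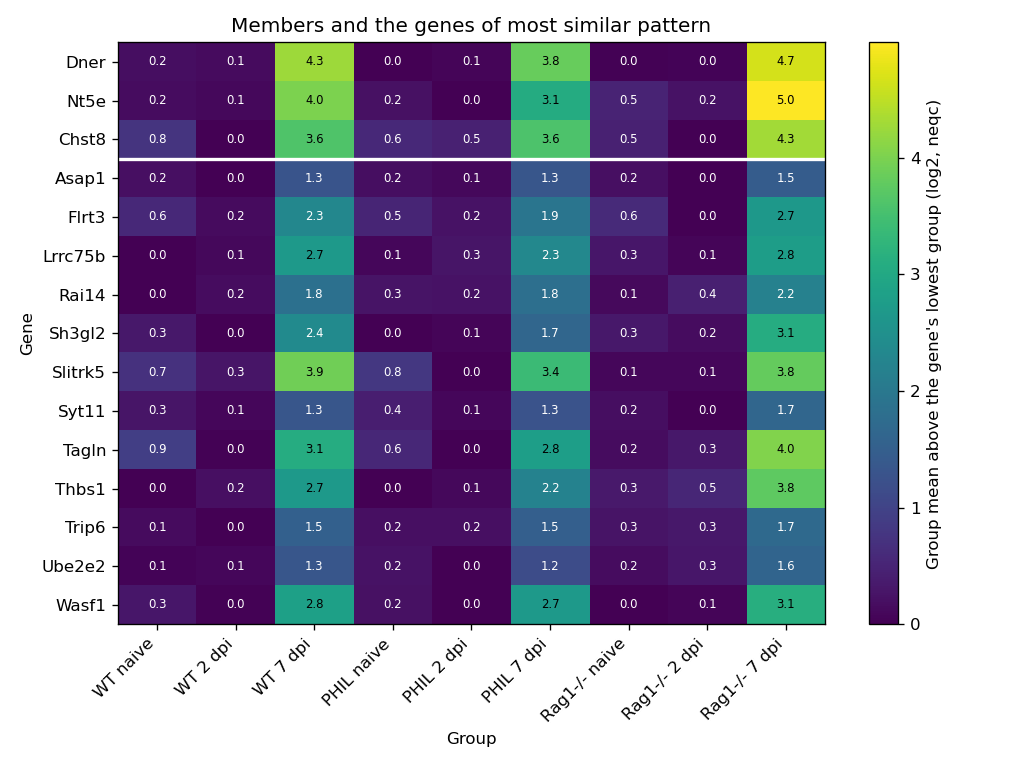
Mean level of each gene in the 9 groups above its lowest group (log2, neqc of all 24 arrays), for Dner, Nt5e and Chst8 (above the white line) and the 12 genes most correlated with them. The 7 dpi columns stand out in all 3 strains, by 3.06 to 4.99 for the members and 1.16 to 4.04 for the other genes.

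The pathways of the 3 genes were described from lists written from general knowledge. Around CD73, 23 of 42 genes of nucleotide and adenosine metabolism were measured. In WT from 2 to 7 dpi 1 was called higher and 4 lower (4.35% and 17.4%, where 9.67% and 7.31% of all probes were), and the median of the list was 0.03 on the log2 scale against -0.02 for all probes. The one higher was the ATP receptor P2ry2 (1.54-fold, limma adjusted p = 0.00597). Lower were the intracellular nucleotidase Nt5c (1.91-fold, adjusted p = 0.00905), Pnp, which splits inosine and has a near copy in the mouse genome (1.82-fold, adjusted p = 0.00065), Dpp4, which anchors adenosine deaminase in humans (1.73-fold, adjusted p = 0.00499), and the ATP release channel Panx1 (1.68-fold, adjusted p = 0.000218). The 4 lower calls held without background correction and without any 1 array, whereas P2ry2 lost its call without that correction and without WT 7 dpi replicate 1 or 3 (log2 0.58 and 0.48).

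In PHIL 2 genes of this list were called higher and 2 lower (8.70% each, where 9.75% and 8.51% of all probes were), with a median of -0.08 against -0.02. Ada, adenosine deaminase, was detected on 2 of 3 PHIL arrays at 7 dpi and 0 of 3 at 2 dpi, with a measured difference of 0.95 on the log2 scale (limma adjusted p = 0.00184) and no fold by its bound. Ada passed the detection filter only through those 2 arrays, so its call is a description, though it held with no filter on detection. The AMP deaminase Ampd2 was 1.71-fold higher (adjusted p = 0.00486), and Nt5c and Panx1 were 1.88-fold and 1.73-fold lower (adjusted p = 0.00993 and 0.000135). In WT Ada differed by 0.17 and Ampd2 by 0.19 on the log2 scale. Of the 10 genes of extracellular nucleotide hydrolysis only Entpd2 and Alpl were measured, with 0 calls, and of the 4 adenosine receptors 0 were. Entpd1, which makes the AMP that CD73 uses, was on the array but detected on fewer than 2 WT and PHIL arrays. Without background correction Ada, Ampd2 and the PHIL difference of Nt5c were under the fold threshold.

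Around Dner, 23 of 43 Notch pathway genes were measured. In WT 1 was called higher and 1 lower (4.35% each, where 9.67% and 7.31% of all probes were), namely Numbl, a relative of the Notch inhibitor Numb (measured difference 0.81 on the log2 scale, limma adjusted p = 0.00443), and Dtx1, a deltex regulator of Notch (-0.78, adjusted p = 0.0227). Each was detected in only 1 of these WT groups (Numbl on 2 of 3 arrays at 7 dpi, Dtx1 on 1 of 3 at 2 dpi), and no fold by a bound can be given. Numbl passed the detection filter only through arrays at 7 dpi and Dtx1 only through arrays at 2 dpi. These calls are therefore a description, though both held with no filter on detection. In PHIL the same counts stood against 9.75% and 8.51% of all probes, and the receptor Notch4 was 1.51-fold higher (adjusted p = 0.0246) and the receptor Notch1 at least 1.32-fold lower (adjusted p = 0.019). Of 4 ligands measured (Dll1, Dll4, Jag2 and Egfl7) and of 4 nuclear effectors and targets (Hes1, Hes6, Hey1 and Nrarp) 0 were called in either strain. The list's median was -0.0015 in WT and -0.08 in PHIL on the log2 scale, against -0.02 for all probes in each. None of these 4 calls held without background correction, and 3 were lost on leaving out single arrays. Numbl and Dtx1 were tested in only 14 of the 16 runs that left out an array, and failed the detection filter in the others. Dtx1 was lost without WT 7 dpi replicate 1 or 3 (limma adjusted p = 0.0599 and 0.0701). Notch1 was lost without PHIL 2 dpi replicate 1 or 2 or PHIL 7 dpi replicate 2 (adjusted p = 0.0692, 0.0905 and 0.0576), and Notch4 without PHIL 2 dpi replicate 2 or 3 or PHIL 7 dpi replicate 1 (adjusted p = 0.0703, 0.097 and 0.101).

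Around Chst8, 10 of 28 sulfation genes were measured, and the calls were all of carbohydrate sulfotransferases. In WT 4 of 10 were called higher and 0 lower (9.67% and 7.31% of all probes), and in PHIL 3 and 0 (9.75% and 8.51% of all probes), with medians of 0.45 and 0.49 on the log2 scale, against -0.02 for all probes in each. Chst2, which sulfates N-acetylglucosamine, was at least 2.83-fold higher in WT and at least 2.62-fold in PHIL (measured differences 2.43 and 2.20 on the log2 scale, 1.16 and 1.01 without background correction, limma adjusted p = 3.44e-07 and 1.09e-06). Chst15, which sulfates chondroitin sulfate chains, was 2.12-fold and 2.07-fold higher (adjusted p = 4.9e-05 and 6.96e-05), and Chst12, a chondroitin 4-sulfotransferase, 2.08-fold and 2.27-fold (adjusted p = 0.0108 and 0.0053). Chst3, a chondroitin 6-sulfotransferase, was at least 1.06-fold higher in WT (adjusted p = 0.0411). Chst2 passed the detection filter only through arrays at 7 dpi, and Chst3 would not have passed it without them. The calls of these genes, and the counts that hold them, are therefore a description, though Chst2 held with no filter on detection. Chst2 and Chst15 kept their calls in both strains in all 30 settings run, leaving out each array included, while Chst12 and Chst3 were under the fold threshold without background correction. In WT Chst12 was lost without 2 dpi replicate 3 or 7 dpi replicate 1 (adjusted p = 0.0508 and 0.0564). Chst3 was lost without WT 2 dpi replicate 2 or 3, WT 7 dpi replicate 1 or 3 or PHIL 2 dpi replicate 1 (adjusted p = 0.0738, 0.157, 0.119, 0.117 and 0.0506). It was also lost with no filter on detection (limma adjusted p = 0.0765). Of the 2 genes for the LacdiNAc sugar that Chst8 sulfates, B4galnt3 and B4galnt4, 0 were measured. Between PHIL and WT at 7 dpi limma called 0 genes of the 3 lists, where 0.529% of all probes were called in either direction, with 3, 2 and 0 at an unadjusted p under 0.05 in the nucleotide, Notch and sulfation lists.

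**Figure D5:**
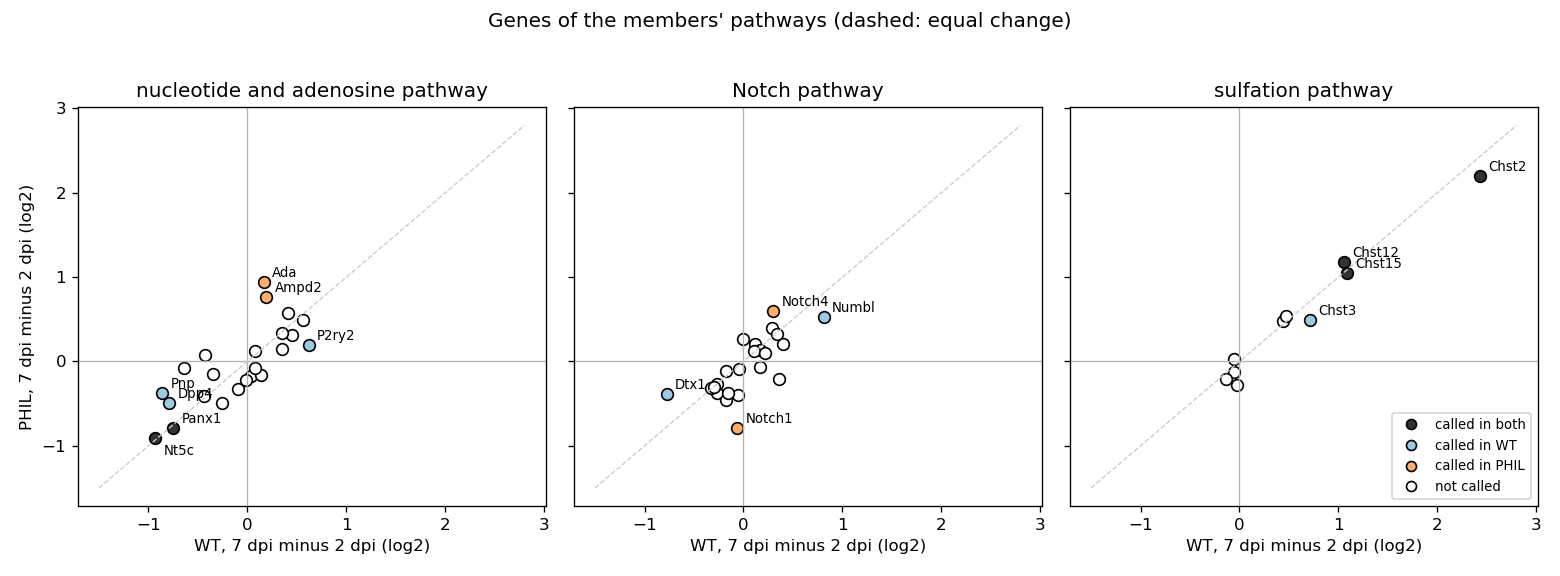
Change from 2 to 7 dpi in WT (horizontal) and PHIL (vertical), log2, for the measured genes of the nucleotide and adenosine (23), Notch (23) and sulfation (10) lists, shaded by whether limma called them in WT, PHIL, both or neither. The dashed line marks equal change. Chst2 lies farthest out, at 2.43 and 2.20.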

How the data were processed

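The 3 genes and all lists were chosen with earlier results of these data known. The authors deposited mean bead signal (intensity, linear, from GenomeStudio 1.8 per the labels, not normalised) with a detection p-value per probe and array, and normalised values on a linear scale, whose method is not stated (the study's methods name lumi), used as log2 for an alternative.

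Here the background was estimated through those detection p-values and arrays were quantile normalised (neqc, offset 16, limma 3.58.1, R 4.3.3), separately for the 16 WT and PHIL arrays and the 8 Rag1-/- arrays, and for all 24 together for levels. Probes detected on at least 2 arrays were fitted by group (lmFit, eBayes) with Benjamini-Hochberg adjustment per comparison. A call needed an absolute log2 change of 0.59 (1.5-fold). Where 1 group had no detected array, "at least" folds, on the background-corrected scale, use the lowest detected signal per array, or the probe's own if higher. The fit was tested on simulated data. Replicates are separate mice, and the number of arrays limits precision.

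Named are every member probe, the 5 best correlated genes per member and up to 3 called genes per list and direction (Panx1 in WT and Chst3, the next in size, were added after their values were seen). Gene names came from the platform annotation, updated to GRCm38.p6 by gene ID (23978 probes with 1 gene, 1719 with none), and promoters from RefSeq. Alternatives were other background corrections and normalisations, filters, probe choice, fits, thresholds, the replicate block and leaving out each array.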

Additional observations from a re-analysis of the deposited data

How the results depend on the processing

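Over the 49 results on the member probes, 1371 values were computed under other settings or without 1 array, of which 1314 kept their direction and side of the threshold (or, for Rag1-/-, stayed within the spread between mice). The rises of Dner, Nt5e probe A and Chst8 at 7 dpi against 2 dpi and naive were called in WT and PHIL in every one of them. Nt5e probe B from 2 to 7 dpi in WT fell under the fold threshold with no background correction (0.47) and with the authors' normalised values (0.47). In PHIL against WT at 7 dpi Nt5e probe A was called with normexp (-0.82), no correction (-0.78), the authors' values (-0.79), a trended and robust fit (-0.92) and array weights (-0.88), and ran from -1.01 to -0.78 without 1 array. Probe B was called with scaling (-0.78) and array weights (-0.66). Chst8 changed sign in that comparison with scaling (0.00295) and ran from -0.068 to 0.0101 without 1 array. The cause was not tested. Scaling also turned the uncalled 2 dpi minus naive values of Nt5e probe A in WT (0.19) and of Chst8 (0.13) and Dner (-0.0308) in PHIL. It moved the median of all probes from -0.07 to 0.36 for WT at 7 dpi against naive.

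Leaving out 1 array turned the sign of other uncalled values. For 2 dpi minus naive in WT, Dner ran from -0.17 to 0.0928 and Nt5e probe A from -0.26 to 0.13. In PHIL, Dner ran from -0.0684 to 0.17, Nt5e probe A from -0.70 to 0.26 and Chst8 from -0.66 to 0.43. For PHIL minus WT at 2 dpi, Dner ran from -0.17 to 0.0948 and Nt5e probe A from -0.23 to 0.0519, and in naive muscle Nt5e probe A ran from -0.42 to 0.55 and Chst8 from -0.72 to 0.38. For the strain difference in the change from naive, Chst8 ran from -0.41 to 0.68.

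With the replicate block, no member call changed (Nt5e probe A in PHIL against WT at 7 dpi, adjusted p = 0.0683), and 38 in place of 60 probes were called there. Deviations of same-numbered arrays from their group means had a median r of 0.00642 (from -0.146 to 0.257 over 36 pairs), against 0.00688 for other pairs. Of the 36 pairs 4 had r over 0.1, and 7 of 16 arrays correlated best with an array of their own number. With so few arrays per group this cannot exclude a pairing by number. Probes called from 2 to 7 dpi in WT numbered 1925, and 915 with no correction, 1112 with normexp and 656 at 2-fold. In PHIL they numbered 2070, 955, 1167 and 644. For PHIL against WT at 7 dpi 60 probes became 233 with array weights, 144 with the trended fit, 18 without filter, 10 at 2-fold and 0 with only the groups compared, and 0 to 123 without 1 array. Probes below the detection limit give only a bound.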

Other observations

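The step seen for Dner, detected on 9 of 9 arrays at 7 dpi and on 0 of 15 earlier arrays, was shared by 42 of the 9209 probes detected on all arrays at 7 dpi, which read 41 named genes. These probes were sorted by this pattern, so their levels are a description. Dner had the largest difference between the 7 dpi and earlier arrays (4.17 on the log2 scale), followed by the neuronal transmembrane gene Slitrk5 (3.42), Igfbp2, which binds insulin-like growth factors (3.38 and 2.72 for its probes), Slc2a13, a myo-inositol transporter (3.15), Tagln (3.02), the sulfotransferase Chst2 (2.799) and the neuropeptide gene Nmu (2.73). Igfbp2, Slc2a13 and Chst2 had their highest mean at 7 dpi in Rag1-/- (10.11, 9.59 and 8.87), as Dner did. Aldoc, an aldolase (8.25 in WT, 7.77 in PHIL and 7.30 in Rag1-/-), and Cend1, a neuronal cell cycle gene (7.47, 7.41 and 6.33), had their lowest there.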
